A study of Homo sapiens with 30 samples.

Results

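The 10 genes described here encode cell surface proteins that leukocytes bind when they attach to and crawl over other cells: the intercellular adhesion molecules ICAM1, ICAM2, ICAM3 and ICAM5, the vascular cell adhesion molecule VCAM1, the activated leukocyte cell adhesion molecule ALCAM, CD58, and the junctional adhesion molecules F11R, JAM2 and JAM3. They were taken by gene symbol from a table of 61471 genes for each of 2 human glioblastoma cell lines, U87 and U251, and each symbol was found in both tables. RNA was sequenced from cells cultured without interferon-γ (Untreated), from cells under continuous interferon-γ for 3, 14 or 28 days (D3, D14, D28), and from cells that spent 14 days in interferon-γ followed by 14 days of withdrawal (D28WO). The data used here hold 13 libraries of U87 (3 Untreated, 2 D3, 2 D14, 3 D28 and 3 D28WO) and 15 of U251 (3 per group). The labels give wild-type genotype for all groups and an interferon-γ dose of 1 µg/mL in one field and 1 µL/mL in another, the study's methods give a different dose, and the Untreated cells carry day 3 in the labels but are the start of the course in the methods, so neither the dose nor the day of the Untreated cells is certain. Both lines are long-established, lack any leukocytes or vessels in culture, are on the register of often misidentified lines and were not re-authenticated for the study. The study describes its replicates as separate culture preparations. Its methods also say that cultures were split at D14 into continued interferon-γ and withdrawal, so D28 and D28WO libraries may share parent cultures. The library titles give a replicate number only. Each level below is the RNA of a whole culture in TPM, a length-scaled share of each library's transcripts from which depth cannot be read.

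ICAM1, ICAM2, ICAM3 and ICAM5 are immunoglobulin-fold proteins that bind the β2 integrin LFA-1 of T cells and myeloid cells, and ICAM1 also binds Mac-1. VCAM1 binds the α4 integrins of lymphocytes and monocytes, ALCAM binds CD6, CD58 binds CD2 on T and natural killer cells, JAM2 binds α4β1, JAM3 binds Mac-1, and the JAM proteins also bind each other. In inflamed tissue, interferon-γ acts through the receptor kinases JAK1 and JAK2, at GAS elements, and through IRF1 at interferon-stimulated response elements, while NF-κB acts at κB sites. ICAM1 and VCAM1 are classical targets of these pathways in endothelium and glia.

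The values of the 2 lines come in tables normalized separately, so values are compared within a line only. The number of genes above 0 ran from 24223 to 28649 in U87 and from 24450 to 30246 in U251, with the Untreated U87 libraries below every treated U87 library. The whole table itself shifted: medians of the log2 fold changes from Untreated of all tested U87 genes were 0.20 (D3), 0.15 (D14), 0.19 (D28) and 0.25 (D28WO), and they were 0.13, 0.096, 0.16 and 0.015 in U251, so fold changes near these values are near the whole table's shift. Pan-leukocyte and lineage markers summed to 4.60 to 13.1 TPM over 10 genes in U87 and 7.34 to 21.1 TPM in U251, and TYROBP was at 0 in every library. Of 8 endothelial markers, 5 in U87 had a mean under 1 TPM, and in U251 they summed to 96.4 to 185.4 TPM, most of it from EGFL7. The glial and neural markers summed to 1536 to 2213 TPM in U87 and 1673 to 4221 TPM in U251, and GFAP, the astrocyte filament, averaged 4.84 TPM in Untreated U87 and 1258 TPM in Untreated U251. The 2 U87 D14 libraries stood apart from the other interferon-γ libraries in the interferon pathway itself: IRF1 was at 134.0 and 109.8 TPM against 130.1 to 135.6 TPM in Untreated and 443.3 to 544.9 TPM at D3, D28 and D28WO. U251 at D14 had IRF1 at 287.5 to 321.4 TPM, above its Untreated range of 136.9 to 144.6 TPM. Whether the U87 D14 cells differed in exposure was not tested.

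ICAM1 lies on chromosome 19 (GRCh38, chr19:10271093-10286615, plus strand, 7 exons) and VCAM1 on chromosome 1 (chr1:100719742-100739045, plus strand, 9 exons). The 250 bases before the RefSeq start of each are shown because ICAM1 and VCAM1 were the members more than 2-fold above Untreated at D28 in both lines. They come from the RefSeq annotation of GRCh38.p14, in which 6 of the 10 members had an entry. Both are on the plus strand, at chr19:10270870-10271119 for ICAM1 and chr1:100719492-100719741 for VCAM1. The ICAM1 stretch ends at 10271119, past the GENCODE start of 10271093 given above, so its last bases lie inside that span. Capitals mark matches, on either strand, to a GAS element (TTCNNNGAA), an interferon-stimulated response element core (GAAA, 2 bases of any kind, GAAA) or a κB core (GGNNNTTCC).
ICAM1: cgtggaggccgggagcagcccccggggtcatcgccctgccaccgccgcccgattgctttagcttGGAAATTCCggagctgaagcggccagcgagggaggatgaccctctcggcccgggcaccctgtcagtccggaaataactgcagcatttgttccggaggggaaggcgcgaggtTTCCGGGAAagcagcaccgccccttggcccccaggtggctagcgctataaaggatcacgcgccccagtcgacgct
VCAM1: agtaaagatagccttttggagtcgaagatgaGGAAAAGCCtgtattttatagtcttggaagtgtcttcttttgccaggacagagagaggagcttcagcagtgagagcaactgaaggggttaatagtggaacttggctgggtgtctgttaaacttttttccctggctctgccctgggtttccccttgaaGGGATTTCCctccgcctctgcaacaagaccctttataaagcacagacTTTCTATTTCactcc
In ICAM1 the GAS match ran from position -75 to -67 before the RefSeq start and the κB match from -186 to -178, where the same bases fit both strands. In VCAM1 the response element core ran from -15 to -6 on the minus strand, and κB matches ran from -219 to -211 on the minus strand and from -62 to -54 on the plus strand. Of the other 4 members with an entry, CD58, which fell in U251, held a κB match from -81 to -73, and ICAM3 and ICAM5, which rose in U251 at D28, and ALCAM held none of these letters. Of 35116 promoters of this length, 6.57% held the GAS letters, 3.02% the response element core and 17.1% the κB core. Letters that match are not sites shown to be bound.

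ICAM1, the main LFA-1 ligand on inflamed cells, had the largest log2 fold change of the 10 at every time in U251, and at D3 and D28 in U87. In U87 it was at 38.6, 48.8 and 35.3 TPM in Untreated, 158.0 and 140.6 TPM at D3, 32.3 and 34.7 TPM at D14, 134.5, 110.1 and 129.4 TPM at D28, and 156.4, 170.0 and 177.5 TPM at D28WO. Every library at D3, D28 and D28WO was thus above every Untreated library, while both D14 libraries were just below them. The mean was 3.65-fold Untreated at D3 (log2 fold change 1.85, SE 0.131, limma adjusted p = 3.18e-06), 3.05-fold at D28 (1.59, SE 0.117, adjusted p = 2.94e-06) and 4.11-fold at D28WO (2.02, SE 0.117, adjusted p = 2.79e-07). As these are bulk cultures, more cells that express a gene and more RNA per cell cannot be told apart. At D14 the difference from Untreated did not pass (-0.27, 95% interval -0.55 to 0.02, adjusted p = 0.25). Between the 2 middle times ICAM1 fell by 2.12 on the log2 scale from D3 to D14 (adjusted p = 5.34e-06), a call lost when only those 4 libraries entered the fit (adjusted p = 0.075), and rose by 1.86 from D14 to D28 (adjusted p = 4.94e-06).

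In Untreated U251 ICAM1 was at 7.08, 7.77 and 5.36 TPM. It reached 154.8, 161.9 and 145.2 TPM at D3, was at 33.5, 39.5 and 29.4 TPM at D14, at 183.3, 174.5 and 194.3 TPM at D28, and at 119.8, 116.1 and 104.3 TPM at D28WO. All treated libraries were above the Untreated range, with the D14 libraries between Untreated and the rest. The mean was 22.9-fold Untreated at D3 (log2 fold change 4.34, SE 0.12, adjusted p = 6.78e-12), 5.07-fold at D14 (2.19, adjusted p = 2.70e-08), 27.3-fold at D28 (4.59, adjusted p = 3.05e-12) and 16.8-fold at D28WO (3.90, adjusted p = 2.21e-11). The dip at D14 passed against both neighbours, at -2.15 against D3 (adjusted p = 4.65e-08) and 2.40 for D28 against D14 (adjusted p = 1.46e-08). These comparisons share the Untreated or the D14 libraries and are not independent of each other.

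At D28WO ICAM1 was above both Untreated and D14, the time at which interferon-γ was withdrawn, in both lines. It was 5.01-fold the D14 mean in U87 (log2 fold change 2.29, adjusted p = 7.23e-07), where D14 itself did not pass against Untreated, and 3.32-fold in U251 (1.71, adjusted p = 2.79e-07). Set beside D28, whose cells had interferon-γ throughout, the level above Untreated at D28WO was 151.7% of the D28 rise in U87 and 60.2% of it in U251. In U87 the D28WO libraries were all above the D28 libraries (log2 fold change 0.43, SE 0.117, adjusted p = 0.025), but the call was lost without D28 replicate 2, D28WO replicate 2 or D28WO replicate 3, with adjusted p up to 0.094. In U251 they were all below (-0.69, SE 0.12, adjusted p = 0.00072), and no alternative ended that call. At D28WO of U87, where ICAM1 and VCAM1 had their highest means, 5 of 9 tested glial and neural markers and 2 of 6 endothelial markers were below Untreated (13.4% of all tested genes fell) and 2 glial markers were above it (28.6% rose). Their part in the members' changes was not tested.

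VCAM1, the α4 integrin ligand, rose in both lines at D28. In U87 it was at 1.09, 0.418 and 0.128 TPM in Untreated, 1.93 and 2.52 TPM at D3, 1.91 and 0.999 TPM at D14, 3.27, 2.33 and 4.18 TPM at D28, and 7.36, 7.90 and 10.6 TPM at D28WO. The D28WO libraries were the highest of the line and did not overlap with any other group. VCAM1 was 5.96-fold Untreated at D28 (log2 fold change 1.49, SE 0.298, adjusted p = 0.0049) and 15.8-fold at D28WO (2.67, adjusted p = 3.42e-05), with no count of reads behind these low values. Without Untreated replicate 1, the highest of that group, these folds were 11.9 and 31.6. The rise at D3 (1.10, adjusted p = 0.043) was lost when Untreated replicate 2 or 3, either D3 library, D28 replicate 1 or any D28WO library was left out, with 0.90 to 1.34 and adjusted p up to 0.18. Where leaving out a library leaves 1 in a U87 group at D3 or D14, that library is assumed to vary like the other groups, which give the spread. It was also lost after quantile normalization (0.65, adjusted p = 0.27). D28WO was above D28 by 1.19 (adjusted p = 0.017), a call lost without D28 replicate 2 or D28WO replicate 3 (adjusted p up to 0.066) and with a pseudocount of 0.1 (adjusted p = 0.11).

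Untreated U251 had VCAM1 at 57.3, 56.4 and 59.0 TPM. The levels were 82.5, 96.7 and 97.0 TPM at D3, 55.5, 51.7 and 51.4 TPM at D14, 116.1, 117.2 and 117.7 TPM at D28, and 128.5, 129.2 and 133.9 TPM at D28WO. The D3, D28 and D28WO libraries were all above Untreated and the D14 libraries all below. VCAM1 rose 1.60-fold at D3 (log2 fold change 0.66, SE 0.0638, adjusted p = 2.00e-06), 2.03-fold at D28 (1.01, adjusted p = 2.79e-08) and 2.27-fold at D28WO (1.17, adjusted p = 1.06e-08). D14 did not pass against Untreated (-0.12, 95% interval -0.26 to 0.02, adjusted p = 0.21), but was below D3 (-0.79, adjusted p = 1.31e-06) and below D28 (D28 against D14 1.13, adjusted p = 4.33e-08). D28WO and D28 did not differ past the threshold (0.16, 95% interval 0.02 to 0.29, adjusted p = 0.084).

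**Figure D1:**
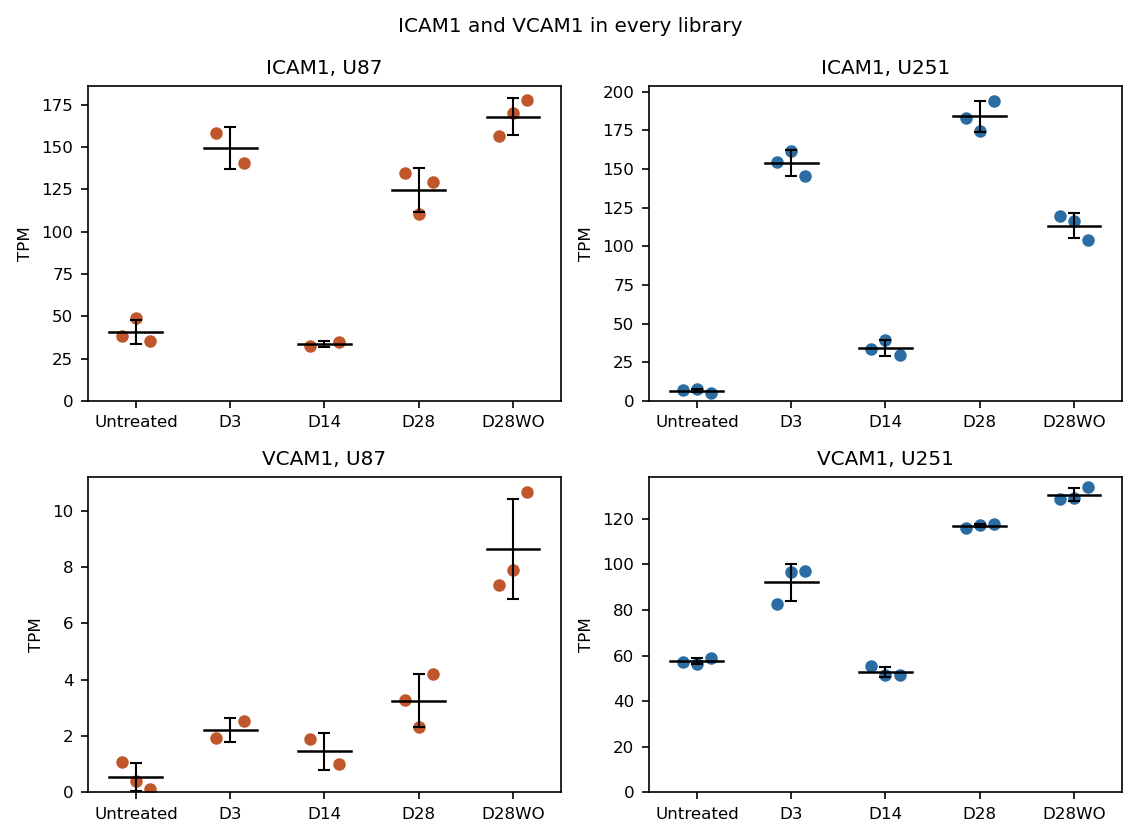
TPM of ICAM1 (upper row) and VCAM1 (lower row) in every library of U87 and U251, by group. Points are libraries, the line is the group mean and the bar its SD. ICAM1 was between 110.1 and 177.5 TPM in every U87 D3, D28 and D28WO library and at 34.7 TPM or less at D14, and VCAM1 in U251 ran from 51.4 to 133.9 TPM.

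The other ICAM genes were ICAM3, ICAM5 and ICAM2. ICAM3, a ligand best known from resting leukocytes (chr19:10333776-10339661, minus strand), was at 57.9, 60.0 and 46.4 TPM in Untreated U87 and at 36.4, 39.2 and 39.6 TPM at D28WO. The D28WO libraries of U87 lay below all others of that line, and the difference from Untreated was -0.49 (SE 0.114, adjusted p = 0.0047), while D3, D14 and D28 did not pass (D28 -0.13, adjusted p = 0.44). In U251 ICAM3 rose at D28, with 32.1, 35.9 and 27.7 TPM against 16.0, 14.7 and 11.9 TPM in Untreated, 2.24-fold (log2 fold change 1.12, SE 0.153, adjusted p = 5.26e-05). It was at 12.1, 11.6 and 14.7 TPM at D28WO, which overlapped Untreated (-0.14, adjusted p = 0.56) and fell by 1.26 against D28 (adjusted p = 3.99e-05). The intermediate U251 level at D14, 22.0, 18.8 and 19.8 TPM, was above Untreated by 0.49 (adjusted p = 0.037), and this call was lost without Untreated replicate 2 or 3 or any D14 library (0.37 to 0.57, adjusted p up to 0.14). The span of ICAM3, introns included, overlaps that of the gene model ENSG00000274425 on the other strand by 2473 bases. That model averaged 9.95 TPM in U87 and 10.7 TPM in U251. Shared exons were not examined, and without the strand setting reads in any shared exon cannot be told apart.

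ICAM5, known as telencephalin for its place on forebrain neurons (chr19:10289952-10296778, plus strand), was at 55.1, 66.6 and 48.9 TPM in Untreated U87 and 72.6, 85.0 and 78.3 TPM at D28. All 3 D28 libraries were above the Untreated ones (1.38-fold, log2 fold change 0.47, SE 0.105, adjusted p = 0.0087), with the whole table shifted by 0.19, and the call was lost when only the compared groups entered the fit (adjusted p = 0.074). The U87 D14 libraries, at 82.9 and 85.7 TPM, were above Untreated by 0.57 (adjusted p = 0.023), which was lost without Untreated replicate 1 or 3 or either D14 library (0.47 to 0.69, adjusted p up to 0.13). Without a D14 library that group is 1 sample and the spread comes from the other groups. In U251 ICAM5 was low, at 4.0, 3.28 and 4.12 TPM in Untreated and 8.43, 8.13 and 11.2 TPM at D28. That rise was 2.43-fold (1.09, SE 0.243, adjusted p = 0.0027), held with each library left out, and was lost after quantile normalization (0.63, adjusted p = 0.066). At D14 ICAM5 was at 6.73, 6.11 and 9.79 TPM in U251, all above Untreated, and it was among the 4 members that rose at that time. At D28WO it was 7.71, 3.54 and 4.22 TPM, overlapping Untreated.

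ICAM2, an LFA-1 ligand of resting endothelium and platelets (chr17:64002594-64020634, minus strand), was near the low end in both lines. In U87 it was at 1.71, 2.06 and 1.84 TPM in Untreated and at 10.1 and 5.08 TPM at D3, with the D3 libraries differing from each other more than the Untreated ones did. That difference passed (log2 fold change 1.52, SE 0.394, adjusted p = 0.023) but was lost without Untreated replicate 1 or 3 or D3 replicate 2 (1.09 to 1.95, adjusted p up to 0.21) and after quantile normalization (1.02, adjusted p = 0.15). In U251 no treated group passed against Untreated, and 2 of the 3 D28WO libraries listed ICAM2 at 0. The span of ICAM2 overlaps that of PRR29 on the other strand by 1712 bases, with the same limits.

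CD58 and ALCAM, the ligands of CD2 and CD6 on T cells, fell in U251, and no treated group of U87 passed against Untreated for either. CD58 (chr1:116514534-116571039, minus strand) was at 155.3, 154.9 and 147.9 TPM in Untreated U251, 92.3, 99.3 and 98.1 TPM at D3, 132.0, 144.3 and 126.5 TPM at D14, 109.6, 99.99 and 102.6 TPM at D28, and 84.2, 95.1 and 86.2 TPM at D28WO. Every treated library was below every Untreated library. CD58 was 1.58-fold lower at D3 (log2 fold change -0.66, SE 0.0646, adjusted p = 2.51e-06), 1.47-fold lower at D28 (-0.55, adjusted p = 1.28e-05) and 1.73-fold lower at D28WO (-0.78, adjusted p = 7.21e-07), and D14 did not pass (-0.19, adjusted p = 0.056). The D14 libraries were above D3 by 0.47 (adjusted p = 0.00013), the opposite direction to ICAM1 at that step. In U87 CD58 stayed between 64.8 and 86.96 TPM in all 13 libraries and no group passed against Untreated, with 95% intervals at D28 of -0.33 to 0.04.

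ALCAM (chr3:105366909-105576900, plus strand) was at 154.9, 155.1 and 168.8 TPM in Untreated U251 and fell to 115.5, 103.3 and 104.9 TPM at D28. The groups did not overlap, and the difference was -0.56 (SE 0.0703, adjusted p = 2.35e-05). Smaller decreases passed at D3 (-0.35, adjusted p = 0.0013), D14 (-0.28, adjusted p = 0.011) and D28WO (-0.23, adjusted p = 0.023), of which D14 was lost without Untreated replicate 3 (adjusted p = 0.052) and D28WO without Untreated replicate 3 or D28WO replicate 2 (adjusted p up to 0.096). ALCAM at D28WO, 139.2, 127.9 and 139.5 TPM, was above D28 by 0.33 (adjusted p = 0.0032). In U87 it was the most abundant of the 10 in Untreated cells, at 125.0, 137.5 and 142.9 TPM, and ran from 115.2 to 155.8 TPM over all libraries with no group passing against Untreated.

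The junctional adhesion molecules, which hold endothelial and epithelial cells together and guide leukocytes through the gap, split by gene. JAM3 (chr11:134069071-134152001, plus strand), a ligand of Mac-1, was the highest of the 10 in Untreated U251, at 210.3, 205.7 and 200.3 TPM. It was at 108.1, 114.8 and 103.6 TPM at D3, 153.0, 150.8 and 141.4 TPM at D14, 110.0, 97.9 and 108.9 TPM at D28, and 131.0, 112.3 and 123.6 TPM at D28WO. No treated library reached the Untreated range, and D14 again lay between Untreated and the other treated groups. The decreases were 1.89-fold at D3 (log2 fold change -0.91, SE 0.0669, adjusted p = 1.42e-07), 1.38-fold at D14 (-0.47, adjusted p = 0.00025), 1.95-fold at D28 (-0.96, adjusted p = 8.01e-08) and 1.68-fold at D28WO (-0.75, adjusted p = 1.66e-06). All held with each library left out and under every alternative tried. D14 was above D3 (0.44, adjusted p = 0.00028), and D28 fell by 0.49 against D14 (adjusted p = 0.00014).

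In U87 JAM3 was at 123.0, 124.9 and 111.2 TPM in Untreated, 117.8, 128.5 and 105.6 TPM at D28, and 72.2, 70.3 and 87.7 TPM at D28WO. Untreated and D28 overlapped (-0.03, 95% interval -0.32 to 0.25, adjusted p = 0.89), and the D28WO libraries were below both, by 0.64 against Untreated (log2 fold change -0.64, SE 0.13, adjusted p = 0.0020) and -0.61 against D28 (adjusted p = 0.0076). The span of JAM3, introns included, overlaps that of NCAPD3 on the other strand by 1889 bases, and shared exons were not examined. The strand setting of the counting is not given in the sources used here.

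JAM2, the α4β1 ligand of vascular endothelium (chr21:25639258-25717562, plus strand), was at 67.0, 76.6 and 71.5 TPM in Untreated U87 and 93.4, 90.2 and 99.4 TPM at D28. The D28 libraries were all above the Untreated ones (1.32-fold, log2 fold change 0.39, SE 0.0776, adjusted p = 0.0046), and the call was lost with median-ratio size factors (0.20, adjusted p = 0.15). At D14, 102.5 and 95.1 TPM, the difference was 0.46 (adjusted p = 0.017), lost without either D14 library (adjusted p up to 0.14), where the lone D14 sample takes its spread from the other groups. In Untreated U251 JAM2 was the lowest of the 10, at 0.552, 0.404 and 0.813 TPM, and it was at 4.07, 2.06 and 2.87 TPM at D28. That rise (1.31, SE 0.344, adjusted p = 0.0077) held with each library left out and was lost after quantile normalization (0.76, adjusted p = 0.12). The D14 libraries of U251, at 2.17, 2.61 and 3.23 TPM, were also all above Untreated (1.21, SE 0.344, adjusted p = 0.023). That call was lost without Untreated replicate 1 or 2 or D14 replicate 2 or 3 (1.10 to 1.21, adjusted p up to 0.082), with no filter on low values (adjusted p = 0.070) and after quantile normalization (0.89, adjusted p = 0.11). The D3 libraries, at 1.98, 0.981 and 0.361 TPM, and the D28WO libraries, at 0.394, 1.58 and 2.10 TPM, overlapped Untreated and did not pass (0.34, adjusted p = 0.46, and 0.50, adjusted p = 0.33), and D28WO did not pass against D28 (-0.81, adjusted p = 0.096). The span of JAM2, introns included, overlaps that of ATP5PF on the other strand by 1060 bases. ATP5PF averaged 148.2 TPM in U87 and 130.5 TPM in U251. Shared exons were not examined, and with the strand setting unknown reads in any shared exon cannot be told apart.

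F11R, also called JAM-A (chr1:160995211-161021343, minus strand), is the tight junction member that binds LFA-1. In U251 it was at 20.8, 22.5 and 27.1 TPM in Untreated and 13.4, 13.9 and 9.77 TPM at D28, with no overlap (1.90-fold lower, log2 fold change -0.88, SE 0.174, adjusted p = 0.0011). At D3, 19.3, 13.9 and 12.3 TPM, it was lower by -0.62 (adjusted p = 0.011), a call lost without Untreated replicate 3 or D3 replicate 3 (adjusted p up to 0.054). After withdrawal it was at 25.1, 19.8 and 20.6 TPM, overlapping Untreated (-0.10, adjusted p = 0.74) and above D28 (0.78, adjusted p = 0.0040). In U87 it ran from 17.2 to 34.4 TPM and no comparison passed. The span of F11R, introns included, shares 23387 bases on the same strand with the gene model ENSG00000270149. That model averaged 15.9 TPM in U87 and 11.7 TPM in U251. Shared exons were not examined, so how reads in any shared exon were divided is uncertain.

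**Figure D2:**
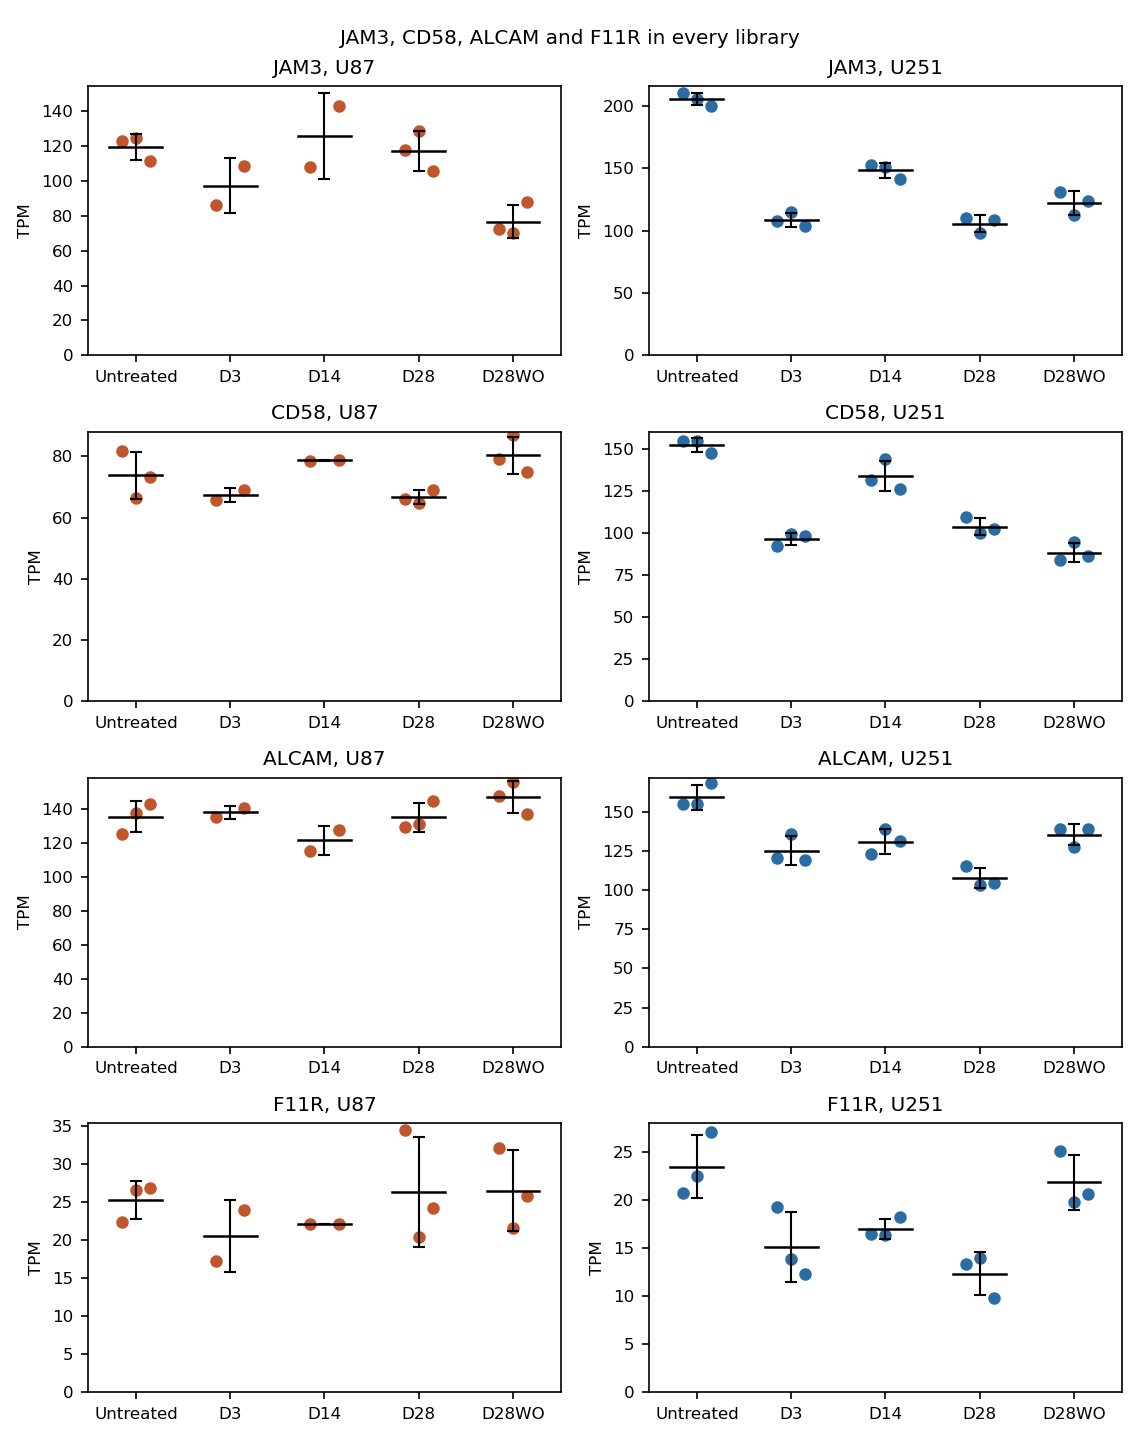
TPM of JAM3, CD58, ALCAM and F11R in every library of U87 (left) and U251 (right), by group, with the mean as a line and the SD as a bar. In U251 the D28 libraries of each of the 4 genes lie below the Untreated libraries, and in U87 they overlap.

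Counted over the 10 genes, all of which passed the filter on low values in both lines, the shares can be read against all tested genes. In U87, 3 members rose at D3 (12.4% of all tested genes rose), D14 had 2 that rose (4.14%) and D28 had 4 (17.2%), and after withdrawal 2 rose (28.6%) and 2 fell (13.4%). In U251, 2 rose and 4 fell at D3 (24.9% and 16.0%), 4 rose and 2 fell at D14 (13.8% and 7.31%), 5 rose and 4 fell at D28 (25.9% and 14.7%), and 2 rose and 3 fell at D28WO (14.3% and 13.4%). With the added limit of an absolute log2 fold change over 1, 3 members were higher at D3 in U87 (5.85% of all tested genes), 2 at D28 (6.77%) and 2 at D28WO (12.8%), and in U251 1 at D3 (9.72%), D14 had 2, ICAM1 and JAM2 (4.72%), D28 had 5 (11.9%) and D28WO had 2 (4.07%). The 5 at D28 in U251 were ICAM1, VCAM1, ICAM3, ICAM5 and JAM2, and those below Untreated were JAM3, CD58, ALCAM and F11R, each by less than 2-fold. The median log2 fold change of the members at D28 was 0.21 in U87, where that of all tested genes was 0.19, and 0.77 in U251, where it was 0.16.

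**Figure D3:**
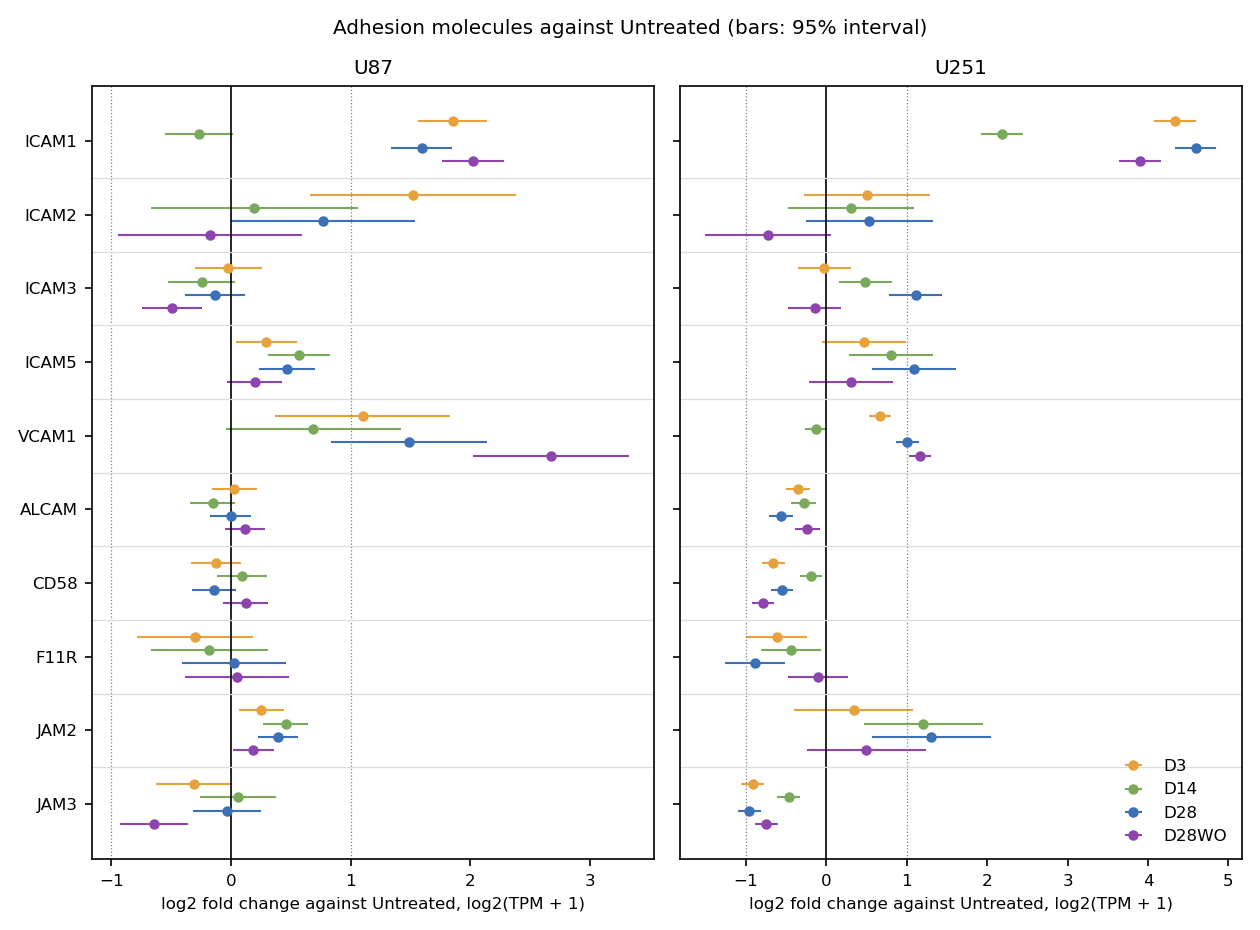
Log2 fold change of log2(TPM + 1) against Untreated for the 10 genes at D3, D14, D28 and D28WO in U87 (left) and U251 (right, on a wider axis). Points are limma estimates and bars 95% intervals, with dotted lines at -1 and 1. ICAM1 ran from -0.27 to 2.02 in U87 and from 2.19 to 4.59 in U251, while JAM3 and CD58 lie below 0 at all times in U251.

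The steps between treated groups were counted in the same way. From D3 to D14, ICAM1 was the 1 member that fell in U87 (3.32% of all tested genes fell), and in U251 3 rose and 2 fell (12.8% and 12.6%). From D14 to D28, ICAM1 was the 1 member that rose in U87 (2.94%), and in U251 3 rose and 3 fell (11.3% and 9.48%). Between D28 and D28WO, 2 members were higher and 2 lower after withdrawal in U87 (9.9% and 8.44%), and 3 were higher and 5 lower in U251 (10.3% and 18.8%). In U87 the members past the threshold were ICAM1 and VCAM1 above D28 and JAM3 and ICAM3 below it, the last with -0.36 (adjusted p = 0.047), which was lost without 10 of the 13 libraries left out 1 at a time. In U251 ALCAM, F11R and JAM3 were above D28 and ICAM1, ICAM2, ICAM3, ICAM5 and CD58 below. Of these, JAM3 (0.21, adjusted p = 0.031) and CD58 (-0.23, adjusted p = 0.015) were each lost without any of 3 libraries, as were ICAM2 (-1.26, adjusted p = 0.019) and ICAM5 (-0.78, adjusted p = 0.027): D28 replicate 2 and D28WO replicates 1 and 3 for JAM3, D28 replicate 1 and D28WO replicates 1 and 3 for CD58, D28 replicate 2 and D28WO replicates 2 and 3 for ICAM2, and D28 replicate 3 and D28WO replicates 2 and 3 for ICAM5.

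Against D14, the last point before withdrawal, the D28WO cells of U87 had 3 members higher and 3 lower (14.3% and 11.5% of all tested genes). ICAM1 (2.29, adjusted p = 7.23e-07) and VCAM1 (1.98, adjusted p = 0.0012) were the larger increases, and ALCAM (0.27, adjusted p = 0.037) was lost without either D14 library or D28WO replicate 1 or 2 (0.20 to 0.34, adjusted p up to 0.26). Of the decreases, JAM3 (-0.70, adjusted p = 0.0043) was lost without D14 replicate 3 (-0.50, adjusted p = 0.067), and ICAM5 (-0.37, adjusted p = 0.038) and JAM2 (-0.27, adjusted p = 0.038) without either D14 library or D28WO replicate 2 or 3, and ICAM5 also without D28WO replicate 1 (adjusted p up to 0.16 and 0.23). In U251 2 were higher and 3 lower (10.6% and 15.8%), ICAM1 (1.71, adjusted p = 2.79e-07) and VCAM1 (1.29, adjusted p = 1.81e-08) against CD58 (-0.60, adjusted p = 1.47e-05), ICAM3 (-0.63, adjusted p = 0.0077) and JAM3 (-0.28, adjusted p = 0.0070). With the limit on the fold change, U87 kept ICAM1 from D3 to D14 (lower, 2.05% of all tested genes) and from D14 to D28 (higher, 1.78%), VCAM1 for D28WO against D28 (higher, 3.11%), and both for D28WO against D14 (higher, 6.3%). In U251 it kept ICAM1 from D3 to D14 (lower, 3.29%), ICAM1 and VCAM1 from D14 to D28 (higher, 4.23%) and for D28WO against D14 (higher, 1.78%), and ICAM2 and ICAM3 for D28WO against D28 (lower, 8.14%).

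The summed TPM of the 10 genes moved far less than its make-up. It was 580.7 ± 26.5 TPM in Untreated U87 (SD, n = 3) and 699.8 ± 9.79 TPM at D28 (n = 3), and 625.6 ± 3.36 TPM in Untreated U251 (n = 3) and 677.5 ± 20.0 TPM at D28 (n = 3). The ICAM1 share of that sum in U87 was 7.02% (Untreated), 21.6% (D3), 5.46% (D14), 17.8% (D28) and 24.2% (D28WO). In U251 it was 1.08%, 25.0%, 6.19%, 27.2% and 17.9% in the same order of groups, and that of JAM3 was 32.8%, 17.7%, 26.98%, 15.6% and 19.3%.

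By length-scaled level, ALCAM, JAM3 and then CD58 led the order in Untreated U87, where CD58 and JAM2 overlapped, as did ICAM5 with ICAM3 and ICAM3 with ICAM1, and VCAM1 came last. At D28WO ICAM1 was first with no overlap with ALCAM behind it. In Untreated U251 JAM3 led, ALCAM and CD58 overlapped, and VCAM1 came next, apart from both its neighbours. ICAM1 was well down that order, below ICAM3, and first at D3 and D28, each time apart from the next gene, which was VCAM1 at D28. At D28WO of U251, ALCAM, VCAM1, JAM3 and ICAM1 followed each other with every neighbouring pair overlapping.

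**Figure D4:**
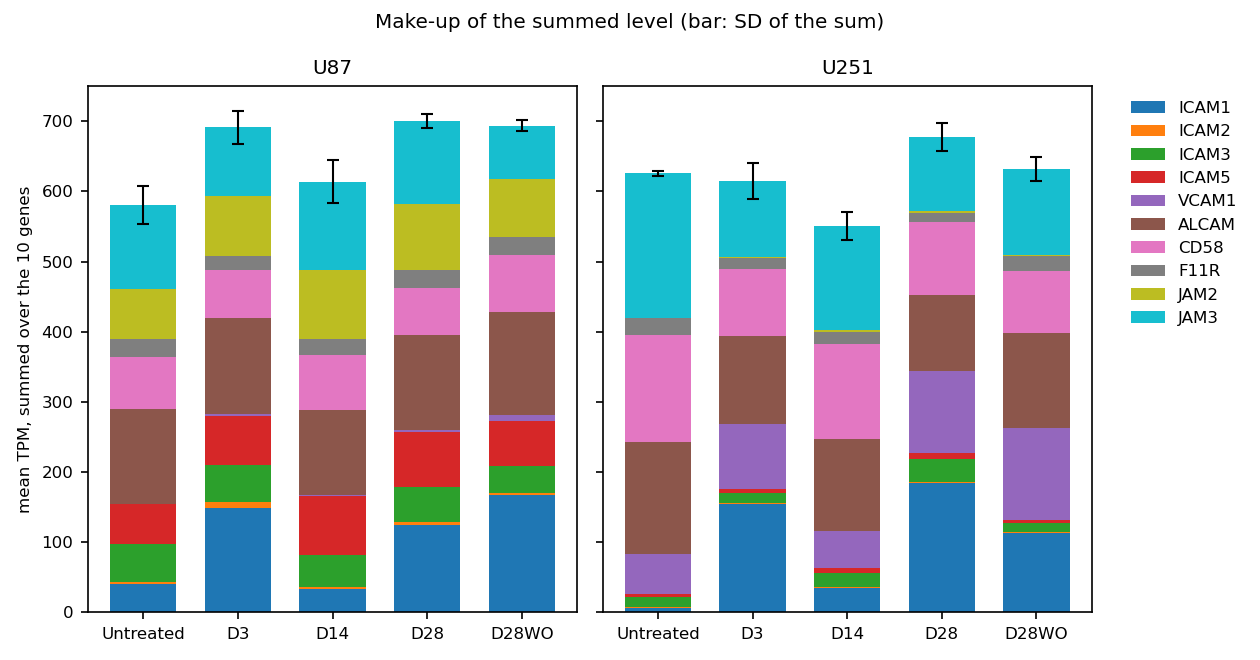
Mean TPM of the 10 genes stacked by group in U87 (left) and U251 (right), with the SD of the sum as a bar. The sum lay between 550.2 and 699.8 TPM in every group, and the ICAM1 block grew from 6.74 TPM in Untreated U251 to 184.0 TPM at D28.

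ICAM1, ICAM4 and ICAM5 lie end to end on chromosome 19, with 339 bases between the end of ICAM1 and the start of ICAM4 and 1429 between ICAM4 and ICAM5, and ICAM3 lies further along on the other strand. ICAM4, a red cell antigen not among the 10, was at 1.48, 1.42 and 1.41 TPM in Untreated U87 and 3.15, 2.91 and 3.63 TPM at D28, and at 0.459, 0.673 and 0 TPM in Untreated U251 and 1.91, 3.71 and 4.53 TPM at D28. It rose in both lines (log2 fold change 0.79, adjusted p = 0.042 in U87, and 1.65, adjusted p = 0.0014 in U251). Of the 14 tested genes in the list of neighbours of this cluster and of VCAM1, 5 rose and 3 fell at D28 in U87, where 17.2% of all tested genes rose and 6.55% fell, and 7 rose and 1 fell in U251, where 25.9% rose and 14.7% fell. ZGLP1 rose in both lines (1.63, adjusted p = 0.0053, and 1.78, adjusted p = 1.12e-05), and S1PR2 (1.11, adjusted p = 0.0045) and PDE4A (1.14, adjusted p = 0.0031) rose in U87. The span of ICAM1, introns included, also overlaps that of the antisense RNA LIMASI over 14016 bases. The mean of LIMASI over all libraries was 1.49 TPM in U87 and 1.46 TPM in U251. Shared exons were not examined, and without the strand setting reads in any shared exon cannot be told apart.

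**Figure D5:**
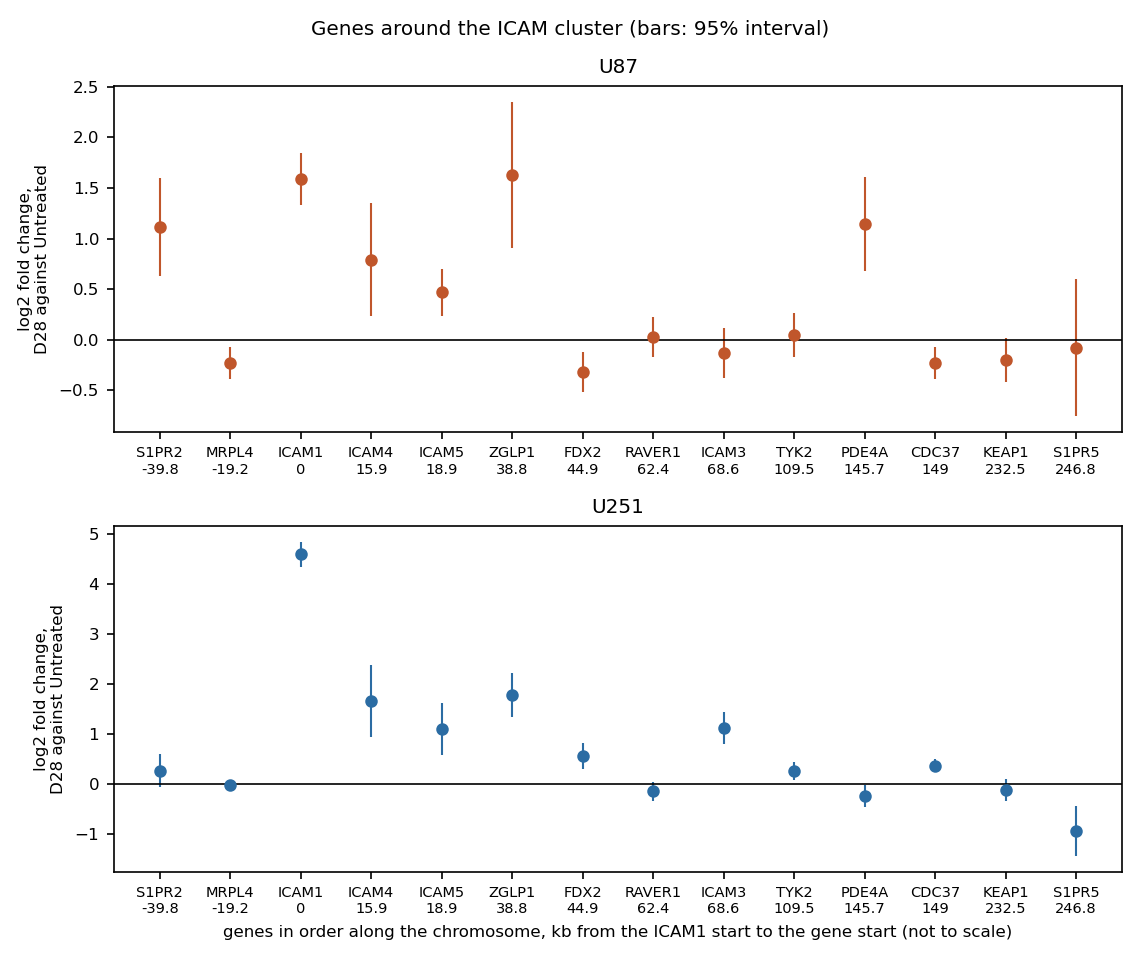
Log2 fold change at D28 against Untreated of the genes around ICAM1, in chromosome order and labelled with the distance in kb from the ICAM1 start to each gene's start (spacing not to scale), in U87 (upper) and U251 (lower). Points are limma estimates and bars 95% intervals. In U251 ICAM1 stands at 4.59 and ICAM4, ICAM5, ZGLP1 and ICAM3 between 1.09 and 1.78.

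The genes that act on or with the 10 were counted from lists. Of 14 upstream signaling and transcription factors, 11 rose and 1 fell at D28 in U87, and 8 rose and 3 fell in U251, against the same shares of all tested genes (17.2% and 6.55% in U87, 25.9% and 14.7% in U251). JAK2, the interferon-γ receptor kinase, went from a mean of 17.9 to 40.5 TPM in U87 (log2 fold change 1.15, adjusted p = 0.00043) and from 9.93 to 56.6 TPM in U251 (2.46, adjusted p = 2.31e-07). The NF-κB inhibitor TNFAIP3 rose in both (1.72, adjusted p = 4.71e-07, and 1.66, adjusted p = 5.42e-08). IRF1 at D28WO was above Untreated in both lines, by 1.93 in U87 (adjusted p = 8.76e-08) and by 2.13 in U251 (adjusted p = 4.95e-09). At D14 in U87 it did not pass (-0.13, adjusted p = 0.49), as was so for ICAM1, while in U251 at D14 it was above Untreated by 1.08 (adjusted p = 1.24e-05).

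The counter-receptors of the 10 were themselves partly expressed. Of 8 tested in U87, 1 rose (ITGAX, 0.90, adjusted p = 0.0079) and 1 fell (ITGB1) at D28, and of 9 in U251, 2 rose and 3 fell, against 17.2% and 6.55% of all tested genes in U87 and 25.9% and 14.7% in U251. In U251 ITGA4, the α4 integrin that binds VCAM1, fell from a mean of 55.4 to 24.3 TPM (-1.16, adjusted p = 7.95e-05), its relative ITGA9 from 48.3 to 8.04 TPM (-2.46, adjusted p = 1.45e-08) and their partner ITGB1 from 345.1 to 190.8 TPM (-0.85, adjusted p = 2.34e-07). ITGB2, the β chain of LFA-1 and Mac-1, was at 1.81 TPM or less in every U87 library and averaged 3.09 to 6.14 TPM in the U251 groups.

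Other adhesion molecules of leukocyte traffic went in both directions. At D28, 3 of 16 tested rose and 5 fell in U87, and 7 of 17 rose and 8 fell in U251, while of all tested genes 17.2% rose and 6.55% fell in U87 and 25.9% rose and 14.7% fell in U251. SELPLG, the selectin ligand, rose in both (1.48, adjusted p = 0.0014, and 2.41, adjusted p = 3.73e-07), and SEMA7A, which binds β1 integrins, fell in both (-0.84, adjusted p = 0.00013, and -1.26, adjusted p = 1.71e-06). CDH5, the cadherin of endothelial junctions, fell from a mean of 27.6 to 1.26 TPM in U251 (-3.70, adjusted p = 5.65e-07), and MCAM rose from 61.2 to 147.2 TPM (1.25, adjusted p = 1.29e-08). Among 16 cytoskeletal anchors and sheddases, 3 rose and 3 fell in U87 and 2 rose and 7 fell in U251, against the same shares of all tested genes, among them moesin (MSN), which tethers ICAM1 and VCAM1 to actin, at -0.36 (adjusted p = 0.0073) and -0.49 (adjusted p = 3.95e-05).

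Markers of other lineages changed beside the members. In U251, of 9 glial and neural markers tested, 9 fell at D3 (16.0% of all tested genes fell), D14 had 7 that fell (7.31%), D28 had 8 (14.7%) and D28WO had 7 (13.4%), and none rose, while the members went in both directions. At D28 the median log2 fold change of these markers was -0.91 and GFAP went from a mean of 1258 to 243.4 TPM (-2.37, adjusted p = 1.71e-10), and in U87 2 rose at D28 (17.2%), GFAP (1.38, adjusted p = 0.020) and S100B (1.06, adjusted p = 0.046). At D28WO of U87, 2 of the 9 rose and 5 fell (28.6% and 13.4%), and their sum was 1536 to 1688 TPM against 1988 to 2213 TPM in Untreated. Of the leukocyte markers, 2 of 6 tested rose at D28 in U251 (25.9%), CD14 from 0.569 to 3.25 TPM and FCER1G from 0.830 to 4.44 TPM, and the summed level was 13.3 to 18.04 TPM there against 7.34 to 11.8 TPM in Untreated. Of the 6 tested endothelial markers, 2 rose and 2 fell in U251 at D28 (25.9% and 14.7%) with a sum of 110.8 to 120.4 TPM against 162.9 to 185.4 TPM in Untreated, and in U87 1 of 6 fell (TEK, -0.84, adjusted p = 0.035), where 6.55% of all tested genes fell, and 2 of 6 fell at D28WO (13.4%). Their part in the members' changes was not tested.

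The genes whose log2(TPM + 1) followed ICAM1 most closely over libraries were RFX5 (Pearson r = 0.987), CTSS (0.987), HLA-E (0.984), GIMAP2 (0.984) and LOXL4 (0.984) over the 13 libraries of U87, out of 14068 genes compared. Over the 15 libraries of U251, out of 14379 genes, they were HLA-DRB6 (0.997), HLA-DMB (0.996), ACSL5 (0.992), PIK3AP1 (0.992) and IDO1 (0.990). For VCAM1 they were LIPT1 (0.981), OTUD1 (0.974), ULBP1 (0.971), KLF4 (0.971) and RAB39B (0.969) in U87, and FTL (0.979), PLAAT4 (0.976), C4B (0.976), ISG20 (0.975) and L3MBTL2-AS1 (0.975) in U251. Among the members, ICAM1 and VCAM1 had r = 0.802 in both lines, and ICAM1 and JAM3 had -0.656 in U87 and -0.972 in U251. The libraries fall into the 5 treatment groups, which all of these genes share, so these values describe the course and are given with no test.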

How the data were processed

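Gene-level TPM tables were deposited by the authors, 1 per cell line, made from paired-end TruSeq RNA libraries. The submitters' processing notes and the study's methods name FastQC, Trim Galore, STAR, featureCounts, edgeR and GRCh38, and how TPM was derived from the counts is not given in the sources used here. Each library sums to 1000000, so depth cannot be read from the TPM, and no counting interval is given.

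Groups came from the labels. Of 30 samples, 28 were used: 2 U87 columns with an identical name could not be tied to a sample and were not used. For each line, log2(TPM + 1) was fitted for genes averaging 0.5 TPM or more (22918 in U87 and 23667 in U251) with limma 3.58.1 in R 4.3.3, all 5 groups in 1 model with a mean-variance trend, and 8 comparisons were adjusted by Benjamini and Hochberg over all tested genes. A gene rose or fell where the adjusted p was under 0.05. For a single result, a call kept or lost refers to this adjusted p alone. Counts of member calls over all comparisons also required the study's added limit of an absolute log2 fold change over 1. Fold changes on this scale understate those of low genes, and folds given as such are ratios of mean TPM.

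The members and lists were chosen with earlier results of these data known. Named besides the members were at most 6 genes per list with the largest D28 change, genes a member's result turns on, and the 5 genes most correlated with ICAM1 or VCAM1 at a mean of at least 5 TPM; IRF1, ITGB2 and the marker genes at 0 or leading a sum were added after their values were seen. Loci come from GENCODE 44 and promoters from RefSeq. The fit was tested on simulated data. Alternatives were the pseudocount, filter, normalization, samples in the fit, library weights, replicate block and each library left out.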

Additional observations from a re-analysis of the deposited data

Results flagged for a closer look

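For some members every library of the first group lay on one side of the second group in U87 and on the other side in U251. None of these differences between lines was tested, because the tables were normalized separately, and U87 has 2 libraries each at D3 and D14. Such an opposite placing was found in 6.41% of the 20473 genes tested in both lines for D14 against Untreated, 6.58% for D14 against D3, 4.44% for D28 against D14 and 8.85% for D28WO against D28. ICAM1 at D14 against Untreated was -0.27 in U87, which did not pass (adjusted p = 0.25), and 2.19 in U251, and at D28WO against D28 it was 0.43 and -0.69. ICAM3 at D14 was -0.24 in U87 and 0.49 in U251 against Untreated, and -0.22 and 0.51 against D3, neither of which passed in U87 (adjusted p = 0.28 and 0.45). For D28WO against D28, JAM3 was -0.61 in U87 and 0.21 in U251, and CD58 was 0.27 (adjusted p = 0.0501, not passed) and -0.23. ALCAM at D28 against D14 was 0.15 in U87 (adjusted p = 0.41, not passed) and -0.28 in U251.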

How the results depend on the processing

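Of 160 comparisons of a member, 75 passed at an adjusted p under 0.05, 46 of these under every alternative, and 65 of the others under none. Over all comparisons against Untreated, 7 member calls were made in U87 and 10 in U251, and 5 and 7 between treated groups. The adjusted p alone gave 13, 26, 12 and 24 in the same order. Quantile normalization left 6 of the 10 U251 calls against Untreated. With 1 library left out at a time the counts ran from 5 to 7 and 8 to 11 against Untreated, and from 4 to 5 and 6 to 9 between treated groups. With the replicate number as a block they were 6, 10, 5 and 7, and 4 of the 75 were lost. Of the same 75, 24 were lost when some single library was left out, 16 with no filter on low values, 16 with only the compared groups in the fit, 10 after quantile normalization, 7 with median-ratio size factors, 3 with a pseudocount of 0.1 and 1 with library weights, and the cause was not tested. Deviations of same-numbered libraries from their group means had correlations of -0.058 to 0.0472 in U87 and -0.0375 to 0.048 in U251. For other-numbered libraries they were -0.053 to 0.058 and -0.0511 to 0.0417. By mean correlation, 7 of 13 U87 and 6 of 15 U251 libraries were nearest their own number. Means of 2 or 3 libraries are too few for these values to exclude a pairing by number, and the main fit used none. Median-ratio size factors, which bring the median of all genes in U87 at D28WO from 0.25 to 0.065, turned the U87 D28WO values against Untreated of ALCAM (-0.12, from 0.12), ICAM5 (-0.033, from 0.20) and JAM2 (-0.048, from 0.19), none of which passed. TPM keeps no depth, so the precision of low members (VCAM1 and ICAM2 in U87, JAM2 and ICAM2 in U251) cannot be given beyond the spread of 2 or 3 libraries.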
